A study of Mus musculus with 2 samples.

Results

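The genes described are Itga2, Itga3, Itga6, Itgb1, Itgb4, Lama3 and Lamb3, 7 of the 31053 genes in the count table, chosen by gene symbol. They encode integrin and laminin chains of epithelial cells. Integrins are surface receptors made of 1 alpha and 1 beta chain that hold cells to the matrix beneath them and signal inwards. Itgb1 is the beta chain that pairs with the alpha chains Itga2, a collagen receptor, Itga3, a laminin receptor, and Itga6. Itga6 also pairs with Itgb4, and that receptor anchors epithelial cells to laminin in hemidesmosomes, where it is tied to keratin filaments through plectin. Laminins are heterotrimers of an alpha, a beta and a gamma chain in the basement membrane. Lama3 and Lamb3 encode an alpha and a beta chain of laminin beneath epithelia. In the intestine, integrins and laminins line the contact between the epithelium and the basement membrane from crypt to villus.

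RNA came from small intestinal organoids, which are epithelial cultures grown from crypts in Matrigel, a basement membrane extract that itself holds laminin. Crypts were taken from wild-type C57BL/6J mice, 1 mouse in each of 2 experiments, so mouse and experiment cannot be told apart. Every culture had 3 days of medium with EGF at 50 ng/ml, Noggin and R-spondin 1, with the kinase inhibitor Y-27632 at the start, and 24 h with no added EGF. EGF, EREG or NRG1 then followed at 100 ng/ml for 24 h, which gave 3 libraries per ligand and experiment, 18 in all. EGF binds the receptor EGFR, EREG binds EGFR and ERBB4, and NRG1 binds ERBB3 and ERBB4. Nothing names the 3 replicates as cultures of their own, and the p-values rest on their spread alone, part or all of which can be technical. No library without a ligand in the last 24 h was part of the comparison, and EGF served as the reference.

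The libraries held 1311420 to 1891243 counts of unique molecular identifiers (UMIs, tags that mark single RNA molecules) and 12141 to 13024 genes with a count. Replicates 1 and 3 were sequenced in one pool and replicate 2 in another. The summed level of 8 epithelial markers lay between 6274 and 11665 CPM (counts scaled to a common library total) in all libraries. That of 10 fibroblast and smooth muscle markers lay between 10.0 and 27.4 CPM, with Lum at 0, that of 4 endothelial markers at no more than 3.41 CPM, with Cdh5 and Kdr at 0, and that of 5 blood cell markers at no more than 7.27 CPM, with Cd3e, Cd79a and Adgre1 at 0. Fewer cells of a type and less RNA per cell cannot be told apart in these bulk libraries.

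Of the 7 genes, 6 had a count in all 18 libraries and were tested with edgeR's quasi-likelihood test, where a gene passed at an adjusted p under 0.1 (Benjamini-Hochberg over all genes tested). Lama3 (chromosome 18, 12333819 to 12583013, plus strand, coordinates here and below in GRCm38) had 1 count in all, in EGF replicate 2 of experiment 2, and was at 0 in the other 17 libraries. A count of 0 allows up to 3 counts, or between 1.59 and 2.29 CPM in these libraries, by counting error alone. This alpha chain was therefore not detectable at this depth with a method that reads only 3′ ends, and it was not tested.

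**Figure D1:**
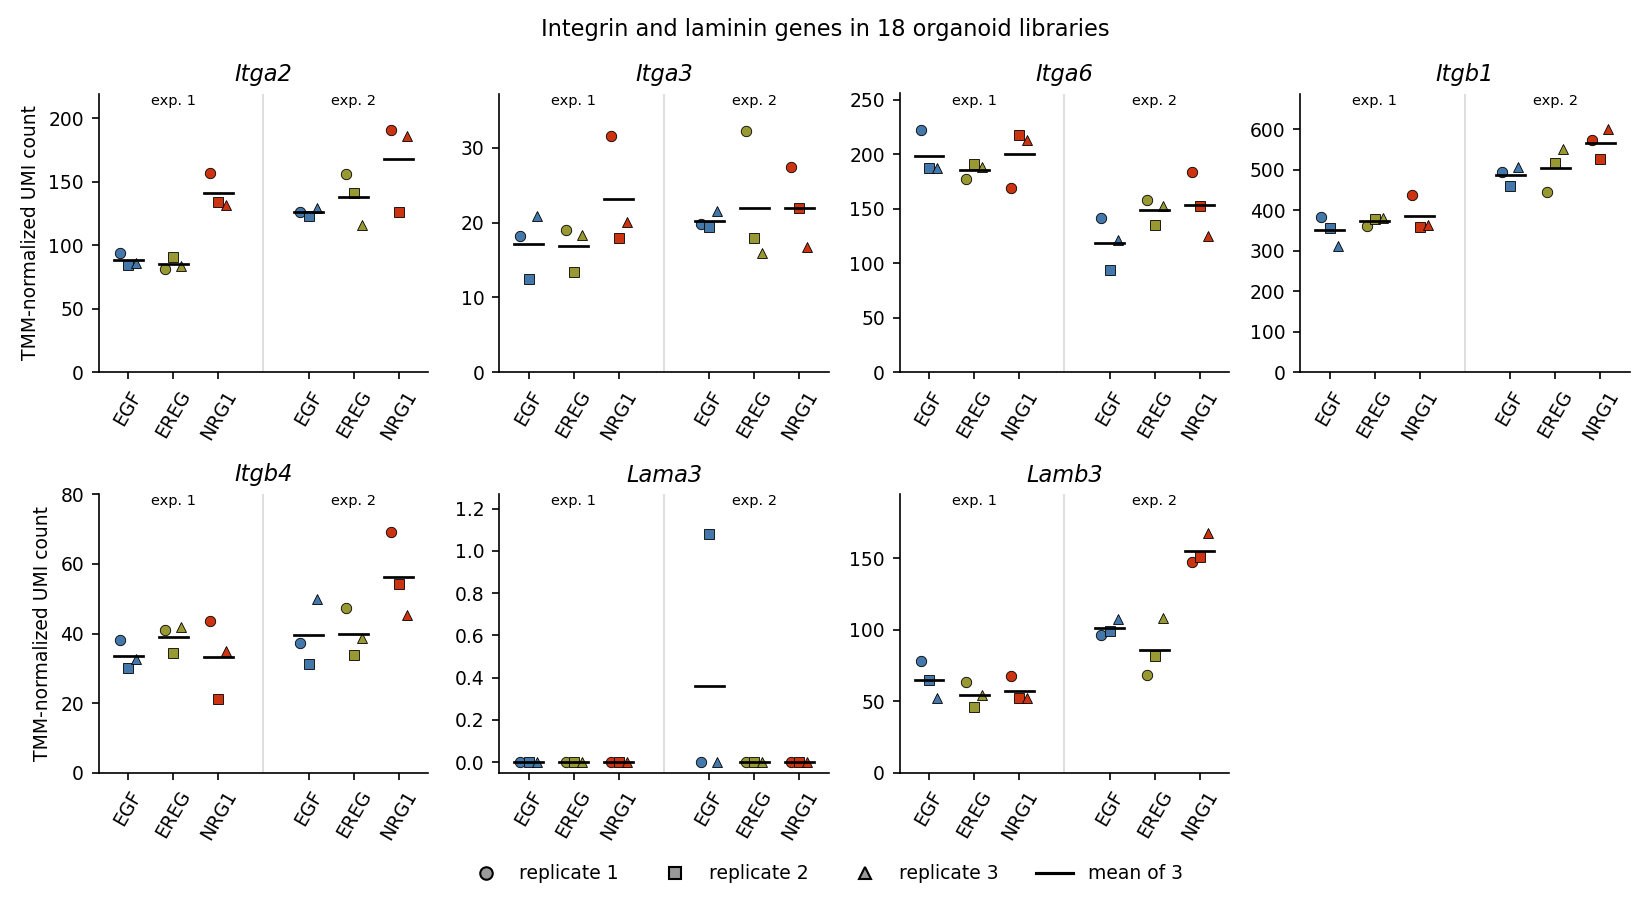
TMM-normalized UMI counts of the 7 genes in each of the 18 libraries, by ligand and experiment. Each point is 1 library and each bar the mean of 3. Itga2 is higher with NRG1 without overlap in experiment 1, at 132 to 157 against 84.2 to 93.7 with EGF, and Lamb3 in experiment 2, at 147 to 168 against 96.6 to 108.

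Itga2, the alpha chain of a collagen receptor (chromosome 13, 114833081 to 114932100, minus strand), was the 1 gene of the 7 that rose with NRG1 against EGF over both experiments. Its normalized count, the UMI count scaled by TMM factors, was 93.7, 84.2 and 86.1 in EGF replicates 1 to 3 of experiment 1 and 157, 134 and 132 in the NRG1 replicates. In experiment 2 it was 126, 123 and 129 with EGF and 190, 126 and 186 with NRG1. With EREG it was 81.1, 90.4 and 83.7 in experiment 1 and 156, 141 and 116 in experiment 2. The NRG1 libraries of experiment 1 all lay above the EGF and EREG libraries, whereas in experiment 2 NRG1 replicate 2 lay inside the range of both. The log2 fold change was 0.54 ± 0.11 (SE), a 1.46-fold difference, with an adjusted p of 0.000412 by edgeR. Against EREG it was 0.49 ± 0.11 (edgeR adjusted p = 0.00162). Over all 12130 genes tested, 11.5% passed in NRG1 against EGF and 6.06% passed as higher, beside 1 of the 6 tested integrin and laminin genes.

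Within experiment 1, Itga2 rose by 0.67 ± 0.15 on the log2 scale (edgeR adjusted p = 0.00113), and within experiment 2 the difference was 0.41 ± 0.15 (adjusted p = 0.106). Over all genes, 7.99% and 7.05% passed in these comparisons. Against EREG, Itga2 rose by 0.71 ± 0.15 within experiment 1 (edgeR adjusted p = 0.000715), and within experiment 2 the difference was 0.28 ± 0.15 (adjusted p = 0.276). The difference between both responses to NRG1 against EGF was -0.27 ± 0.21 with an adjusted p of 0.748, so the experiments were not shown to differ. Within experiment 2, Itga2 passed in 10 of 27 alternatives, 6 of them among the 18 fits that left out 1 library, which ranged from 0.29 without NRG1 replicate 3 (adjusted p = 0.463) to 0.58 without NRG1 replicate 2 (adjusted p = 0.0263). In replicate 2 alone, 1 library per ligand and experiment, the difference over both experiments was 0.38 ± 0.21 against EGF (adjusted p = 0.536) and 0.23 ± 0.20 against EREG (adjusted p = 0.768).

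Lamb3, the laminin beta chain (chromosome 1, 193207699 to 193343878, plus strand), was higher with NRG1 in experiment 2. There its normalized count was 96.6, 99.3 and 108 with EGF, 68.5, 81.9 and 108 with EREG, and 147, 151 and 168 with NRG1. All 3 NRG1 libraries lay above all 6 others. In experiment 1 the values were 78.2, 64.7 and 52.7 with EGF, 63.2, 46.0 and 54.1 with EREG, and 67.5, 52.3 and 52.3 with NRG1, and the 3 ligands overlapped.

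Within experiment 2, Lamb3 rose by 0.62 ± 0.17 on the log2 scale against EGF (edgeR adjusted p = 0.0117) and by 0.85 ± 0.17 against EREG (adjusted p = 0.000113). Within experiment 1 the differences were -0.19 ± 0.19 and 0.07 ± 0.20, and neither passed. Over all genes, 6.93% and 11% passed in NRG1 against EREG within experiments 1 and 2. Over both experiments, Lamb3 passed against EREG at 0.52 ± 0.14 (edgeR adjusted p = 0.0119) and did not pass against EGF at 0.26 ± 0.14 (adjusted p = 0.277). With Itga2, this made 2 of the 6 tested genes higher with NRG1 than with EREG, beside 11.3% of all genes that passed in either direction and 6.57% that passed as higher. Both comparisons use the same NRG1 libraries. Lamb3 did not pass against EREG in the pool of replicates 1 and 3 alone (0.49 ± 0.18, adjusted p = 0.152) or in replicate 2 alone (0.58 ± 0.24, adjusted p = 0.25).

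The difference between the NRG1 responses of Lamb3 in experiments 2 and 1 was 0.81 ± 0.25, with an unadjusted p of 0.00168 and an adjusted p of 0.109 by edgeR. None of the 6 tested genes passed for this difference by edgeR, beside 1.44% of all genes, and Lamb3 was the 1 with an unadjusted p under 0.05. DESeq2 passed none and gave no adjusted p for 2 of them. The adjusted p of Lamb3 lay between 0.0439 and 0.396 when each library was left out in turn. Without EGF replicate 1 of experiment 2, the rise within that experiment was 0.56 ± 0.19 (adjusted p = 0.103).

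Markers of cell types and of RNA quality also moved with NRG1. Of 6 stem cell markers, 5 were lower with NRG1 than with EGF over both experiments (median log2 fold change -0.57), 5 within experiment 1 and 2 within experiment 2. Their summed level lay at 3597 to 3875 CPM with EGF and 2499 to 2648 CPM with NRG1 in experiment 1, and at 1357 to 1535 and 853 to 930.3 CPM in experiment 2. In experiment 2 the summed epithelial markers lay at 8416 to 9074 CPM in the EGF libraries and 11017 to 11665 CPM in the NRG1 libraries, and 7 enterocyte markers at 8721 to 9866 and 14034 to 14678 CPM. In experiment 1 the epithelial markers lay at 6485 to 6852 and 7217 to 7922 CPM and the enterocyte markers at 10072 to 11844 and 11238 to 13034 CPM. Over both experiments 3 of the 8 epithelial markers passed as higher and 1, Cdx1, as lower, at -0.32 ± 0.08. Of the 7 enterocyte markers 3 passed as higher and 1, Slc2a2, as lower, at -0.50 ± 0.14. Within experiment 1, 1 enterocyte marker was higher and 1 lower, with a median of -0.10. Within experiment 2, 4 were higher and 0 lower, with a median of 0.53. Over all genes 11.5% passed over both experiments, and 7.99% and 7.05% within experiments 1 and 2. The nuclear RNA Malat1, read here as a sign of RNA quality, was higher with NRG1 by 1.15 ± 0.11 on the log2 scale in experiment 2 and differed by -0.09 ± 0.12 in experiment 1, a difference between experiments of 1.24 ± 0.16 (edgeR adjusted p = 4.65e-06). The mitochondrial transcript mt-Cytb was lower with NRG1 in experiment 1, at -0.99 ± 0.09, and its response differed between experiments by 0.91 ± 0.13. Of 5 RNA quality markers, these 2 among them, 2 were lower with NRG1 within experiment 1 and 2 higher within experiment 2. Over both experiments 2 were lower and 0 higher, with a median log2 fold change of 0.20. For 4 of the 5 the NRG1 response differed between the experiments, beside 1.44% of all genes. Against EREG over both experiments, 5 of the 6 stem cell markers were lower with NRG1 and 0 higher (median -0.54). Of the 7 enterocyte markers 4 were higher and 0 lower (median 0.35), and of the 8 epithelial markers 3 were higher and 1 lower. Of the 5 RNA quality markers 1 was higher, Malat1 at 0.79 ± 0.23 (edgeR adjusted p = 0.0492), and 2 were lower. Over all genes 11.3% passed against EREG. The part of these values in the results for Itga2 and Lamb3 was not tested.

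**Figure D2:**
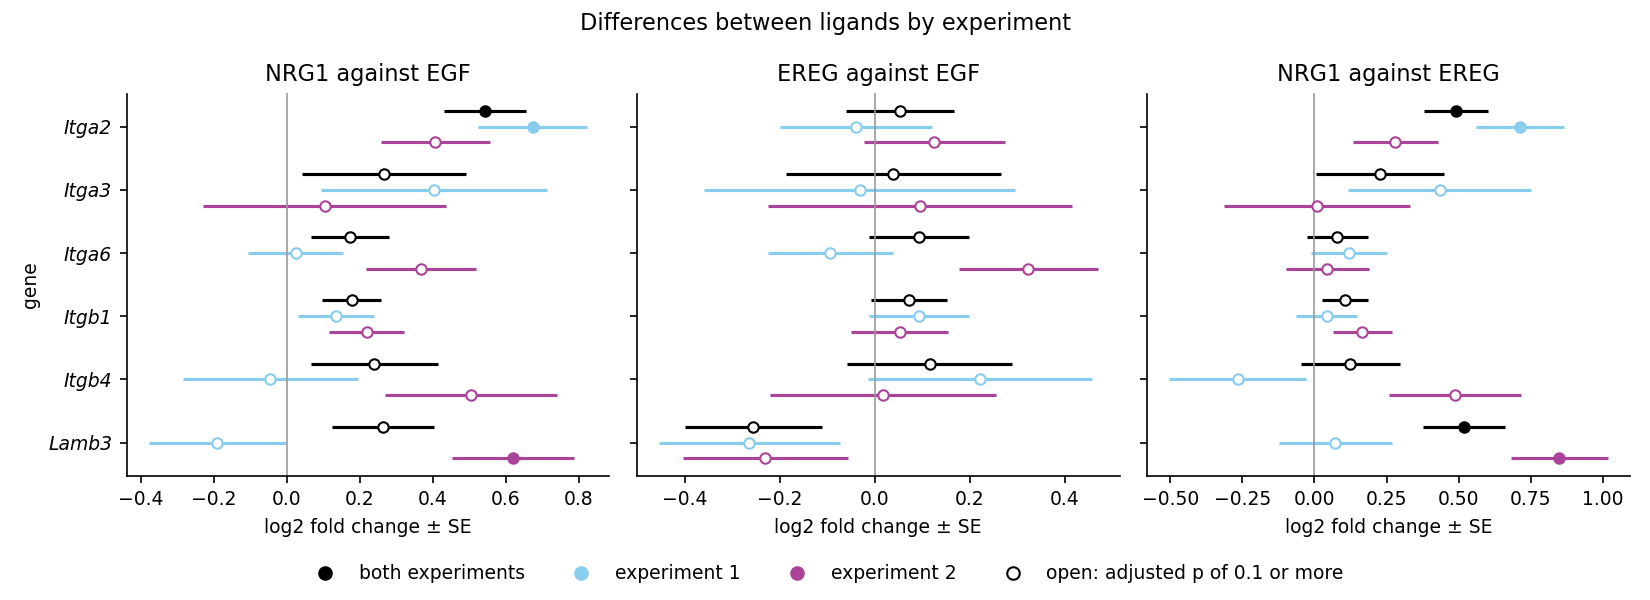
Log2 fold changes ± SE of the 6 tested genes for each pair of ligands, over both experiments and within each. Filled points passed at an adjusted p under 0.1. With NRG1 against EGF, Itga2 passed over both experiments and in experiment 1 (0.54 and 0.67), and Lamb3 in experiment 2 (0.62).

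Itgb1, Itga6, Itgb4 and Itga3 did not pass with NRG1 against EGF. Itgb1 (chromosome 8, 128685654 to 128733200, plus strand), the beta chain shared by Itga2, Itga3 and Itga6, differed by 0.18 ± 0.08 on the log2 scale, with an unadjusted p of 0.0297 and an adjusted p of 0.176 by edgeR. Its normalized count in experiment 1 was 385, 357 and 313 with EGF and 438, 359 and 364 with NRG1. In experiment 2 it was 494, 461 and 508 with EGF and 574, 527 and 601 with NRG1, where the NRG1 libraries all lay above the EGF libraries. Itgb1 passed at 0.19 ± 0.07 (adjusted p = 0.0969) when the EREG libraries were left out of the fit.

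Itga6 (chromosome 2, 71745616 to 71858416, plus strand), the alpha chain that pairs with Itgb1 or Itgb4, differed by 0.17 ± 0.11 with NRG1 against EGF. In experiment 1 its normalized count was 222, 187 and 187 with EGF and 169, 218 and 213 with NRG1, and in experiment 2 it was 142, 93.9 and 121 with EGF and 184, 152 and 125 with NRG1. The groups overlapped in both experiments. Within experiment 2 the difference was 0.37 ± 0.15 (edgeR adjusted p = 0.166), and without NRG1 replicate 3 of that experiment it was 0.52 ± 0.17 (adjusted p = 0.0669).

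Itgb4 (chromosome 11, 115974709 to 116008412, plus strand), the hemidesmosome beta chain, differed by 0.24 ± 0.17 with NRG1 against EGF. Its normalized count in experiment 2 was 37.3, 31.3 and 49.9 with EGF and 69.1, 54.1 and 45.3 with NRG1, and in experiment 1 it was 38.2, 30.2 and 32.6 with EGF and 43.5, 21.2 and 34.9 with NRG1. The groups overlapped in both. Exons of Itgb4 overlap the antisense gene B230344G16Rik, and the sources used here do not say that counting used strand.

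Itga3 (chromosome 11, 95044474 to 95076801, minus strand), the alpha chain of another laminin receptor, had 14 to 32 counts per library and differed by 0.27 ± 0.22 with NRG1 against EGF. In experiment 1 its normalized count was 18.2, 12.4 and 20.9 with EGF and 31.6, 18.0 and 20.0 with NRG1, and in experiment 2 it was 19.8, 19.4 and 21.6 with EGF and 27.4, 21.9 and 16.7 with NRG1. The groups overlapped in both experiments. The 95% intervals of the log2 fold change over both experiments ran from -0.22 to 0.75 for Itga3, from -0.14 to 0.62 for Itgb4 and from -0.06 to 0.40 for Itga6, so that differences within these bounds are not excluded.

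The median log2 fold change of the 6 tested genes with NRG1 against EGF was 0.25, beside -0.01 over all genes. Within experiment 1 their median was 0.08 and within experiment 2 it was 0.39, beside -0.01 and -0.02 over all genes. None of the 6 had NRG1 libraries apart from EGF libraries in both experiments, beside 2.84% of all genes with NRG1 higher in both. In experiment 1 this held for Itga2, beside 10% of all genes with NRG1 higher, and in experiment 2 for Itgb1 and Lamb3, beside 10.9%. Against EREG none did so in both experiments, beside 2.43% of all genes, while Itga2 did in experiment 1, beside 8.66%, and Lamb3 in experiment 2, beside 11.4%.

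None of the 6 genes passed with EREG against EGF by edgeR, and 0 of them had an unadjusted p under 0.05 there. DESeq2, which gave no adjusted p for 5 of them, passed none. Over all genes 1 passed (0.00824%) by edgeR and 11 by DESeq2, and 662 had an unadjusted p under 0.05 by edgeR. For Lamb3 the log2 fold change was -0.26 ± 0.14 (edgeR unadjusted p = 0.0795, adjusted p = 0.937), with a 95% interval from -0.57 to 0.06. For Itga2 the difference was 0.05 ± 0.11 with an interval from -0.20 to 0.30, and for Itgb1 it was 0.07 ± 0.08 with an interval from -0.10 to 0.24. The median of the 6 was 0.06, beside 0.00212 over all genes. Within experiments 1 and 2 none passed either, beside 0% and 0.998% of all genes, and Itga6 in experiment 2 was the 1 gene with an unadjusted p under 0.05, at 0.32 ± 0.15 (edgeR adjusted p = 0.422). The EREG response differed between the experiments for none of them, beside 0.0742% of all genes, with Itga6 at 0.42 ± 0.20 (edgeR unadjusted p = 0.0365). The Itga6 normalized count was 177, 191 and 188 with EREG in experiment 1 and 158, 135 and 153 in experiment 2.

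These genes also differed between the experiments under EGF alone. In the EGF libraries of experiment 2 against experiment 1, Itga2, Itgb1 and Lamb3 were higher and Itga6 was lower, 4 of the 6 tested genes, beside 33.6% of all genes that passed, 17.2% as higher and 16.3% as lower. Itgb1 was higher by 0.47 ± 0.10 on the log2 scale (edgeR adjusted p = 0.000174), Itga2 by 0.52 ± 0.15 (adjusted p = 0.00628), and Lamb3 by 0.64 ± 0.18 (adjusted p = 0.00341). Itga6 was lower, at -0.74 ± 0.14 (adjusted p = 1.2e-05). The 3 EGF libraries of one experiment did not overlap those of the other for Itga2, Itga6, Itgb1 or Lamb3. The share of all genes without such overlap was not counted, so this is not shown to be particular to these genes. Itga3 and Itgb4 differed by 0.24 ± 0.33 and 0.23 ± 0.24 and did not pass.

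Beside these levels, all 6 stem cell markers passed as lower in the EGF libraries of experiment 2 than in those of experiment 1. Other marker lists moved too. Of 5 RNA quality markers 2 were higher and 3 lower, and of 8 epithelial markers 5 were higher and 1 lower. Of 7 enterocyte markers 3 were higher and 2 lower, and of 6 tested Paneth cell markers 2 were higher and 2 lower. Over all genes 33.6% passed. The part of these markers in the levels of the integrin and laminin genes was not tested. With 1 mouse per experiment it cannot be told apart from the mouse.

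The ratio of Itga6 to its partner Itgb1 within a library split by experiment. On the log2 scale it was -0.82 ± 0.10 (SD, n = 3) with EGF, -1.01 ± 0.02 with EREG and -0.95 ± 0.36 with NRG1 in experiment 1. In experiment 2 it was -2.05 ± 0.25, -1.76 ± 0.24 and -1.90 ± 0.32. All 9 libraries of experiment 2 lay below all 9 of experiment 1. With EGF, Itga6 was lower and Itgb1 higher in experiment 2, as given above, so the ratio is no separate result. The ratio of Itga6 to its other partner, Itgb4, was 2.55 ± 0.06 with EGF, 2.24 ± 0.20 with EREG and 2.62 ± 0.70 with NRG1 in experiment 1. The values of experiment 2 were 1.58 ± 0.32, 1.89 ± 0.14 and 1.45 ± 0.04. Here the experiments overlapped, since NRG1 replicate 1 of experiment 1, at 1.94, lay below EREG replicates 2 and 3 of experiment 2, at 1.98 and 1.97. The ratio of Itga2 to Itgb1 was -1.99 ± 0.12 with EGF, -2.13 ± 0.06 with EREG and -1.45 ± 0.03 with NRG1 in experiment 1, where the NRG1 libraries lay apart. In experiment 2 it was -1.94 ± 0.04, -1.87 ± 0.37 and -1.78 ± 0.25, with overlap. The share of gene pairs whose ratios lie apart in these ways was not counted, so neither separation is shown to be particular to these pairs. These ratios compare libraries, since UMI counts at 3′ ends are not set against each other as levels of different genes.

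**Figure D3:**
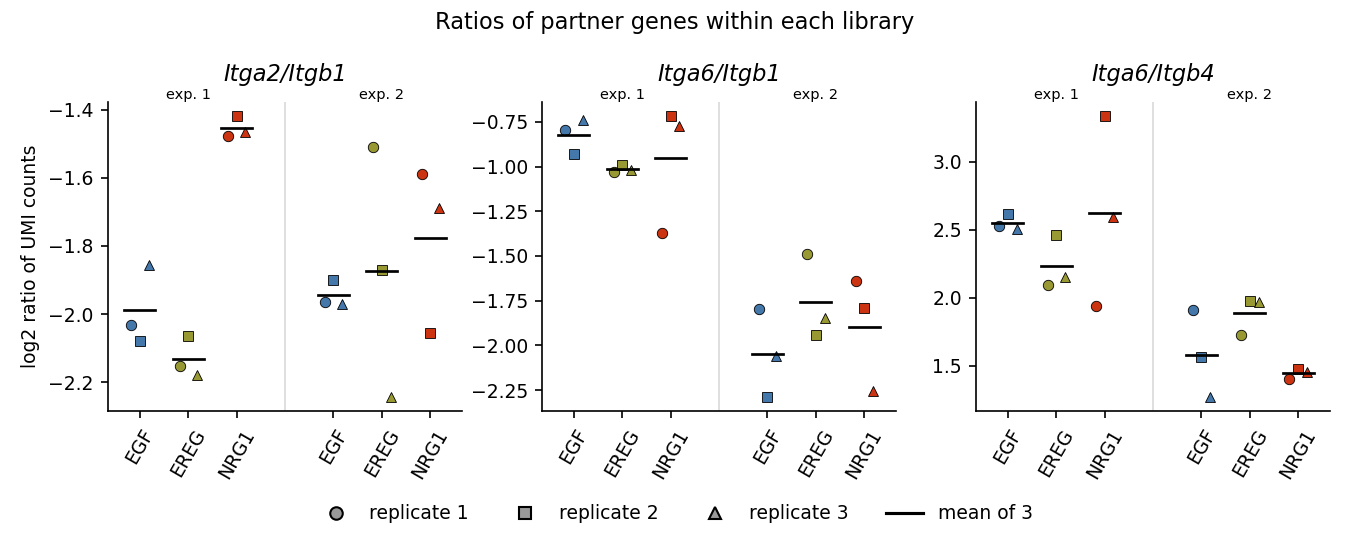
Log2 ratios of UMI counts of partner genes within each library, by ligand and experiment. Each point is 1 library and each bar the mean of 3. The ratio of Itga6 to Itgb1 lies between -1.37 and -0.72 in experiment 1 and between -2.29 and -1.49 in experiment 2.

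Other genes of cell adhesion are given by list. Of 21 other integrin genes, 6 were tested with NRG1 against EGF and 1 rose, beside 6.06% of all genes. It was Itga7, an alpha chain of a laminin receptor of muscle. Its mean normalized count was only 2.57 with EGF and 7.64 with NRG1 (log2 fold change 1.76 ± 0.54, edgeR adjusted p = 0.0286), and its exons overlap the antisense gene Mettl7b. Of the 8 other laminin genes reported here, 4 were tested, and 0 passed against EGF by edgeR or had an unadjusted p under 0.05. Lamc1, a laminin chain of most tissues, was the 1 of them that rose against EREG, by 0.62 ± 0.24 (edgeR adjusted p = 0.0949). Over all genes 6.57% passed as higher against EREG. The medians against EGF were 0.51 for the other integrins and -0.02 for the other laminins, beside -0.01 over all genes.

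Of 9 hemidesmosome and tetraspanin genes, 8 were tested, and 2 rose with NRG1 against EGF, 25% beside 6.06% of all genes. Krt8, a keratin of simple epithelia, rose by 0.46 ± 0.07 on the log2 scale (edgeR adjusted p = 2.3e-06), and Cd151, a tetraspanin that binds laminin receptors, by 0.26 ± 0.09 (adjusted p = 0.0769). The median of the list was 0.26. Cd151 rose by 0.44 ± 0.12 within experiment 1 (adjusted p = 0.0143) and differed by 0.08 ± 0.12 within experiment 2 (adjusted p = 0.823). The difference between the experiments did not pass for it. Cd81, another tetraspanin, was lower within experiment 1, at -0.31 ± 0.09 (adjusted p = 0.0194). Within experiment 1, 2 of the 8 tested genes were higher and 1 lower, 37.5% beside 7.99% of all genes. Within experiment 2, 4 were higher and 0 lower, 50% beside 7.05%, with Dst among them at 0.77 ± 0.26 (adjusted p = 0.0694). Plec, which encodes plectin, and Krt18, the keratin partner of Krt8, responded differently in the experiments. They were 2 of the 8, beside 1.44% of all genes. For Plec the difference was 0.98 ± 0.29 (adjusted p = 0.0874) and for Krt18 it was 0.66 ± 0.12 (adjusted p = 0.000278), and both rose within experiment 2, by 0.88 and 0.57. Col17a1, the hemidesmosome collagen, did not pass the filter on low counts. Krt8 and Krt18 are also among the epithelial markers above, so the lists share these genes.

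Of 21 other basement membrane genes and receptors, 11 were tested and 1 rose with NRG1 against EGF, beside 6.06% of all genes. It was Sdc1, a heparan sulphate proteoglycan of the basolateral surface, which rose by 0.52 ± 0.10 (edgeR adjusted p = 0.000106). Sdc4, another syndecan, which sits in focal adhesions, was lower against EREG at -0.27 ± 0.08 (adjusted p = 0.023). Against EREG, 1 of the 11 was higher and 1 lower, 18.2% beside 11.3% of all genes. The median of the list against EGF was 0.03.

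Of the 30 genes of focal adhesions and integrin signalling reported here, 26 were tested and 5 rose with NRG1 against EGF, 19.2% beside 11.5% of all genes, and none was lower. Ptk2, the focal adhesion kinase, rose by 0.54 ± 0.16 on the log2 scale (edgeR adjusted p = 0.0201), and Vcl, vinculin, by 0.61 ± 0.23 (adjusted p = 0.0846). Zyx, Lpp and Vasp, which act on actin at adhesions, rose by 0.42, 0.30 and 0.29. The median was 0.12. Within experiment 1, 1 of the 26 was higher and 1 lower, 7.69% beside 7.99% of all genes, with a median of -0.06, and within experiment 2, 5 were higher, 19.2% beside 7.05%, with a median of 0.24. Vcl differed by 0.14 ± 0.31 in experiment 1 and rose by 1.09 ± 0.31 in experiment 2, and Lpp differed by 0.08 ± 0.13 and rose by 0.49 ± 0.12, but the difference between the experiments passed for neither. Against EREG, 7 rose and 3 were lower, 38.5% beside 11.3% of all genes. Tes, a zyxin partner at adhesions, was among the higher ones, at 0.32 ± 0.09 (adjusted p = 0.00818). The 3 lower ones, named after their values were seen, were Ilk, Parva and Tns3, which link integrins to actin, at -0.34, -0.39 and -0.65. Of the windows of 61 nucleotides at the 3′ end of Ilk, 12% also occurred in Gm6263, so its count is uncertain. For Zyx and Tes the NRG1 response differed between the experiments, by 0.93 ± 0.23 (adjusted p = 0.0179) and 0.47 ± 0.14 (adjusted p = 0.096), with the larger value in experiment 2. They were 2 of the 26, 7.69% beside 1.44% of all genes.

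Of 19 matrix proteases and inhibitors, 15 were tested. With NRG1 against EGF 1 was higher and 2 lower, 20% beside 11.5% of all genes. Plaur, the receptor of urokinase, rose by 1.22 ± 0.19 on the log2 scale with NRG1 against EGF (edgeR adjusted p = 2.07e-06). Mmp7, a matrix metalloproteinase that Paneth cells of the mouse secrete, was lower at -0.42 ± 0.09 (adjusted p = 0.000707), and Timp3, a metalloproteinase inhibitor, at -0.83 ± 0.24 (adjusted p = 0.0162). Mmp7 differed by -0.19 ± 0.10 within experiment 1 (edgeR adjusted p = 0.281) and was lower by -0.70 ± 0.11 within experiment 2. Its NRG1 response differed between the experiments, by -0.51 ± 0.15 (edgeR adjusted p = 0.0651). This held for 1 of the 15 tested genes, beside 1.44% of all genes. All 6 tested Paneth cell markers, Mmp7 among them, were lower with NRG1 against EGF over both experiments. Against EREG, 3 of the 15 tested proteases and inhibitors were higher and 1 lower, 26.7% beside 11.3% of all genes. Plaur was higher by 1.43 ± 0.19 (edgeR adjusted p = 7.13e-08). Plat and Serpinb5, a plasminogen activator and a serpin, were higher too, by 1.20 ± 0.32 (adjusted p = 0.00947) and 0.83 ± 0.24 (adjusted p = 0.0176). Mmp7 was lower at -0.34 ± 0.09 (adjusted p = 0.00857). The median of the list against EGF was 0.22.

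**Figure D4:**
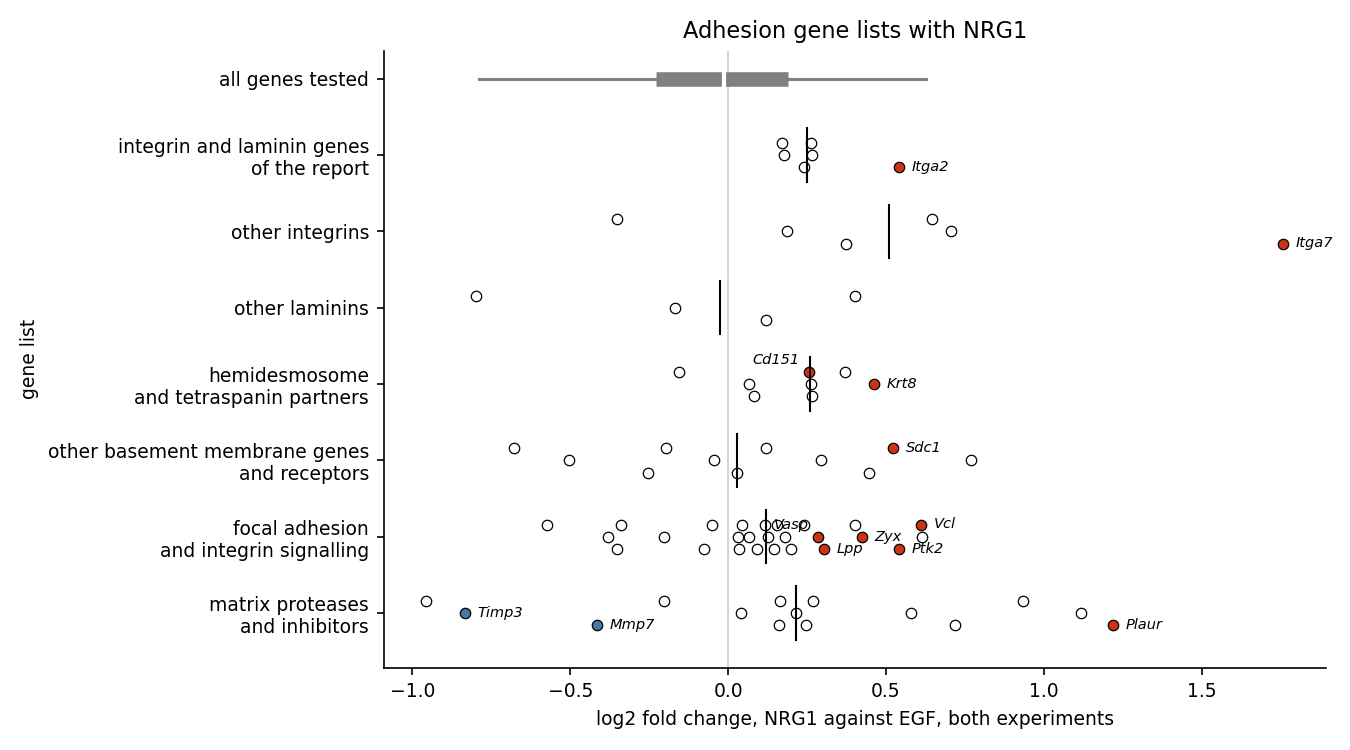
Log2 fold changes of NRG1 against EGF over both experiments for the tested genes of each adhesion list. Filled and named points passed at an adjusted p under 0.1 (red higher, blue lower), vertical bars are medians, and the grey band shows the 25th to 75th and the 5th to 95th percentiles of all genes. Itga7 lies at 1.76, Plaur at 1.22 and Vcl at 0.61, and the 6 tested integrin and laminin genes lie between 0.17 and 0.54.

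The genes most like each integrin and laminin gene were found by Pearson's correlation of log2 CPM over the 18 libraries, among 8962 genes, with the mean of each experiment removed. The libraries share ligand, pool and depth, so these values are a description. Itga2 was most like Arl1 (r = 0.91), Ptk2 (0.89) and Areg (0.89), a ligand of EGFR. Lamb3 was most like Golga4 (r = 0.94), Malat1 (0.89) and Keap1 (0.86). The genes most like Itgb1 included Rassf6 (r = 0.85) and Tmed10. Itgb4 was most like Magi1 (0.85), Deptor and Pls3, Itga3 like Ptgr1 (0.83), Smyd3 and Ahcyl1, and Itga6 like Prkd3 (0.79), Kdm6b and Kdelc1. Counts of Tmed10 and Kdelc1 are uncertain, since 34.2% and 28.8% of their 3′ windows of 61 nucleotides also occurred in Tmed10-ps and Gm29247. No gene of the 7 was among the 3 nearest of another. Among the tested genes of the 7, r was highest for Itgb1 and Lamb3, at 0.65, and Itga2 and Lamb3, the genes that rose against EREG, had an r of 0.19.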

How the data were processed

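Per the labels and the study's methods, RNA was primed at the poly(A) tail, UMI-tagged and sequenced from 3′ ends, and the authors, after alignment to GRCm38 by STAR 2.7.8a, deposited raw UMI counts for each gene in each library. The deposited sample sheet gave ligand, experiment, replicate and pool. Symbols and coordinates were taken from GENCODE of GRCm38 (31011 identifiers matched). A reporter row with 6 counts (2.05e-05% of all) was left out. In R 4.3.3, the 12130 genes that summed to 5 counts or more over all libraries, with a mean of 1 or more after scaling by DESeq2 size factors, were tested with edgeR 4.0.16 (TMM, robust quasi-likelihood F-test) in 1 fit with experiment, ligand and replicate number, as in the study's design, at a Benjamini-Hochberg adjusted p under 0.1. A second fit with the interaction of experiment and ligand gave values within and between experiments. DESeq2 1.42.0, other scalings, filters, blocks and subsets were alternatives. The SE is the absolute log2 fold change over the square root of F, and 95% intervals use residual degrees of freedom (12 and 10). The code of the first fit was tested on simulated data with no difference between experiments. The fit with the interaction was not tested in this way. Replicate pairs differed beyond counting noise (chi-square per degree of freedom 1.54 to 4.48).

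The integrin and laminin genes and all lists were chosen with earlier results of these data known. Some genes are not reported here and were left out of the lists and of the named genes. Named genes were these 7, up to 6 genes per list with the smallest adjusted p among those that passed in NRG1 against EGF, up to 4 per list and other comparison that passed, and the 3 most alike genes (mean normalized count of at least 10). Windows at 3′ ends of the 7 genes were in no other gene. Exons of Cd151, Krt8, Vcl, Zyx, Lpp, Tes, Mmp7 and Timp3 overlap antisense genes, and without strand such reads cannot be told apart.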

Additional observations from a re-analysis of the deposited data

Results flagged for a closer look

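The 6 tested genes with each ligand gave 18 sets of 6 libraries. A single library stood apart from the rest of its ligand in 2 sets, both for Itga3. Chance alone picks out about 1 in 20 where all 6 libraries share 1 level. Each set joined both experiments, whose EGF levels differed for Itga2, Itga6, Itgb1 and Lamb3. For these genes that rate need not hold, and a library that stands apart can be missed. Itga3 was low in EGF replicate 2 of experiment 1, with a normalized count of 12.42, and high in EREG replicate 1 of experiment 2, with 32.25. The gap to the nearest library was 0.632 and 0.705 of the whole range. Itga3 passed in no comparison with or without these libraries.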

How the results depend on the processing

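Over 1999 values of the 6 tested genes under alternatives, 1968 stayed on the same side of the threshold, 7 lost it, 24 gained it and 0 called values reversed, with 17 left out because DESeq2 gave no adjusted p. For NRG1 against EGF, 2 of the 6 genes passed in place of 1 with the fit of these ligands alone (Itgb1 added) and in experiment 2 fitted apart (Itga2 and Lamb3), and 0 passed in pool S4 alone (replicate 2). Leaving out 1 library at a time gave 1 to 2, with 2 (Lamb3 added, adjusted p = 0.0999) without NRG1 replicate 3 of experiment 1. For NRG1 against EREG, 1 passed in place of 2 in experiment 1 fitted apart (Lamb3 lost), in experiment 2 fitted apart (Itga2 lost, 0.26, adjusted p = 0.247) and in pool S3 alone (replicates 1 and 3, Lamb3 lost), and 0 in pool S4 alone. For the NRG1 response between experiments, 1 passed (Lamb3) in place of 0 with RLE size factors, with a filter at a mean count of 10, and with the replicate block within experiment. Leaving out 1 library gave 0 to 1, with 1 without EREG replicate 1 or NRG1 replicate 1 or EGF replicate 3 of experiment 1, or EREG replicate 1 or 3 of experiment 2. The replicate block, part of the study's design, changed no other call over both experiments. With no replicate block the counts of these genes that passed were the same, 1 and 2 for NRG1 against EGF and EREG, and over all genes the interaction passed for 91 in place of 175. Deviations of same-numbered libraries correlated between 0.0196 and 0.175, over 0.1 in every pair only for replicate 2, so the numbers may not pair the libraries.

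Over all genes, EREG against EGF passed 1 gene, 11 with DESeq2, 26 with no filter, 16 with the block within experiment, 25 with these ligands alone, 2 and 339 in experiments 1 and 2 fitted apart, 0 in either pool alone or with counts summed per ligand and experiment, and 0 to 43 when 1 library was left out. The EREG response between experiments passed 9 genes, 14 with DESeq2, 49 with no filter, 0 with no replicate block, 99 with the block within experiment, 277 without the libraries held in tubes, and 0 to 243 when 1 library was left out. The NRG1 response passed 175, 296 with the block within experiment, and 96 to 243 when 1 library was left out. NRG1 against EGF passed 1391, but 590 in pool S3, 275 in pool S4 and 738 with counts summed, where fewer libraries enter. NRG1 against EREG passed 1375, but 526, 330 and 737 in those fits. Without TMM, higher and lower calls moved from 797 and 578 to 639 and 701 for NRG1 against EREG, from 88 and 87 to 66 and 144 for the NRG1 response between experiments, and from 2087 and 1983 to 1664 and 2565 between experiments in EGF. Leaving out the 2 libraries held in tubes, an alternative chosen after seeing the data, kept the counts of these genes that passed in each comparison over both experiments, and Itga6 then passed within experiment 2 (0.52, adjusted p = 0.0522). The cause of these shifts was not tested.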
